A study of Danio rerio with 8 samples.

Results

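The endoplasmic reticulum (ER) genes described here code for folding enzymes and chaperones, for the sensors and factors of the unfolded protein response, and for ER-associated degradation. They were chosen by gene symbol from a written list of 38, and all 38 were found among the 31202 symbols of the deposited table. The series profiled primordial germ cells (PGCs), the embryonic precursors of eggs and sperm, of pigu-/- and wild type zebrafish embryos. The pigu product belongs to GPI transamidase, the ER enzyme that attaches glycosylphosphatidylinositol anchors to proteins, and the study asks how that enzyme affects PGC migration. There were 4 groups with 2 libraries each: pigu-/- embryos at bud (the end of gastrulation), wild type embryos at bud, pigu-/- embryos at shield (early gastrulation) and wild type embryos at shield. The pigu-/- groups are called mutant below.

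All embryos had been injected at the zygote stage with mRNA that carries GFP and the nanos1 3′ UTR, which marks PGCs. Green cells were picked by hand after dissociation, pooled after each embryo's genotype was read from its somatic cells, and profiled by SMART-seq2, a poly(A)-based method for small inputs. Tuebingen and India wild type strains and a Tg(kop:EGFP-nanos 3′UTR) line are named for the series as a whole. The labels describe neither the pigu allele nor the number of cells or embryos in a pool, and 1 protocol field speaks of oocytes. In such pools, fewer cells of a type and less RNA per cell cannot be told apart.

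Proteins that enter the secretory route fold in the ER. The Hsp70 chaperone BiP (hspa5) and the Hsp90 chaperone Grp94 (hsp90b1) bind unfolded chains, protein disulfide isomerases (the pdia genes and p4hb) make and rearrange disulfide bonds, and calnexin and calreticulin hold glycoproteins until UGGT and its partners judge them folded. When unfolded protein accumulates, the sensors IRE1 (ern1), PERK (eif2ak3) and ATF6 act through the transcription factors XBP1, ATF4, CHOP (ddit3) and cleaved ATF6. Chains that cannot fold are recognised by EDEM and OS-9, passed through a membrane complex of SEL1L, the ubiquitin ligase SYVN1 and derlins, and degraded by the proteasome in the cytosol. The route is known for high activity in secretory cells, such as those of the hatching gland of fish embryos.

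Values are FPKM (fragments per kilobase and per mapped total of the library) as the authors deposited them, and are always given for replicates 1 and 2 in that order. Since FPKM is scaled to length, levels of different genes can be set side by side. A gene listed at 0 in a table without counts may be unexpressed or missed, and is given here only as listed at 0. Of the 38 genes, 37 reached an FPKM of 1 in 2 or more libraries and entered the test, which covered 13984 genes. derl3 did not.

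Libraries differed in how much they detected, also between the replicates of a group. Genes with FPKM of at least 1 numbered 5878 to 13007, and the mitochondrial genome took 17.3% to 72.2% of the total FPKM. In all 4 groups replicate 1 had fewer such genes and a larger mitochondrial share than replicate 2. Mutant shield replicate 1 and mutant bud replicate 1 had the fewest genes, with 53.3% and 49.3% of the tested genes listed at 0, against 4.26% to 34.4% in the other 6. Transcripts of pigu itself stood at 0 and 7.32 FPKM in mutant bud versus 2.78 and 14.6 in wild type bud, while mutant shield held 0.813 and 10.9 versus 11.5 and 15.04 in wild type shield. The genotypes overlapped at bud and were narrowly separated at shield, with pigu lower in mutant, and the differences were −1.41, SE 1.70 at bud and −1.60, SE 1.70 at shield on the log2(FPKM + 1) scale (limma adjusted p = 0.961 and 1). The labels do not say whether the allele lowers the transcript. The 9 germ cell markers, among them ddx4 and nanos3, had FPKM of at least 1 for 7 to 9 genes in every library. Their summed FPKM ranged from 3546 in mutant bud replicate 2 to 34736 in mutant shield replicate 2. The largest part of the sum was nanos3, at 1518 and 20924 FPKM in those libraries. Whether reads from the nanos1 3′ UTR of the injected mRNA were counted under nanos3 is not given in the sources used here. Lowest in mutant bud replicate 2 were nanos3 and dnd1, but ddx4, dazl, tdrd7a, ca15b, gra and tdrd6 were lowest in mutant shield replicate 1. piwil1 was listed at 0 in both mutant replicates 1.

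Markers of other cell types were present in some pools. The 8 hatching gland and prechordal plate genes summed to 53.9 and 833 in mutant bud versus 77.4 and 52.9 in wild type bud, and at shield to 2.01 and 21.1 in mutant versus 7.85 and 18.3 in wild type. Of the wild type bud sums, cd63 alone made up 69.6 and 51.9. In mutant bud replicate 2, 7 of the 8 had FPKM of at least 1, against 1 to 4 in the other libraries. The hatching enzymes he1.1 and he1.2 stood at 145 and 66.2 FPKM in mutant bud replicate 2 and were listed at 0 in the other 7 libraries. The 11 enveloping layer genes summed to 72.5 and 1030.2 in mutant bud versus 68.2 and 23.4 in wild type bud, and at shield to 592 and 20.9 in mutant versus 64.4 and 49.4 in wild type. The 8 notochord and axial mesoderm genes summed to 31.02 and 536 in mutant bud versus 31.2 and 29.96 in wild type bud, and at shield to 16.9 and 277 in mutant versus 214 and 514 in wild type. Mutant bud replicate 2 thus held the highest level of each of these 3 lists, and mutant shield replicate 1 the next highest of the enveloping layer. The 10 neural ectoderm genes summed to 240.3 and 1155 in mutant bud versus 126 and 166 in wild type bud, and at shield to 178 and 352 in mutant versus 167 and 407 in wild type, again highest in mutant bud replicate 2. The 7 paraxial mesoderm genes summed to 421 and 493 in mutant bud versus 81.4 and 130.4 in wild type bud, and at shield to 102 and 576 in mutant versus 132 and 315 in wild type. The 8 yolk syncytial genes summed to 91.1 and 32.2 in mutant bud versus 42.2 and 5.70 in wild type bud. At shield they summed to 7.38 and 5.17 in mutant versus 3.48 and 1.85 in wild type. The highest sum was that of mutant bud replicate 1. There apoa1b alone stood at 88.7 FPKM, and 6 of the 8 genes were listed at 0. The part of these cells in the results below was not tested. Some values are given without a library, but that also removes whatever else set the library apart and leaves 1 library in its group.

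Summed over the 38 ER genes, replicate 1 lay below replicate 2 in all 4 groups. The sum of FPKM was 1228 and 2215 in mutant bud versus 1329 and 1628 in wild type bud, with 406 and 1284 in mutant shield versus 956 and 2103 in wild type shield. Genes listed at 0 numbered 15 and 1 in mutant bud versus 2 and 1 in wild type bud, with 15 and 2 in mutant shield versus 6 and 1 in wild type shield. 11 of the 38 were listed at 0 in both mutant replicates 1, and 16 had FPKM of at least 1 in all 8 libraries. When each library was scaled to 1000000 FPKM outside the mitochondrial genome, the sums became 2562 and 3719 in mutant bud versus 2693 and 3265 in wild type bud, with 1894 and 2609 in mutant shield versus 2673 and 4502 in wild type shield. The 2 mutant libraries and the 2 wild type libraries overlapped at bud on both scales. At shield they overlapped on the unscaled sum and did not on the scaled one, where both mutant libraries lay lower. The margin was narrow, at 2609 against 2673.

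**Figure D1:**
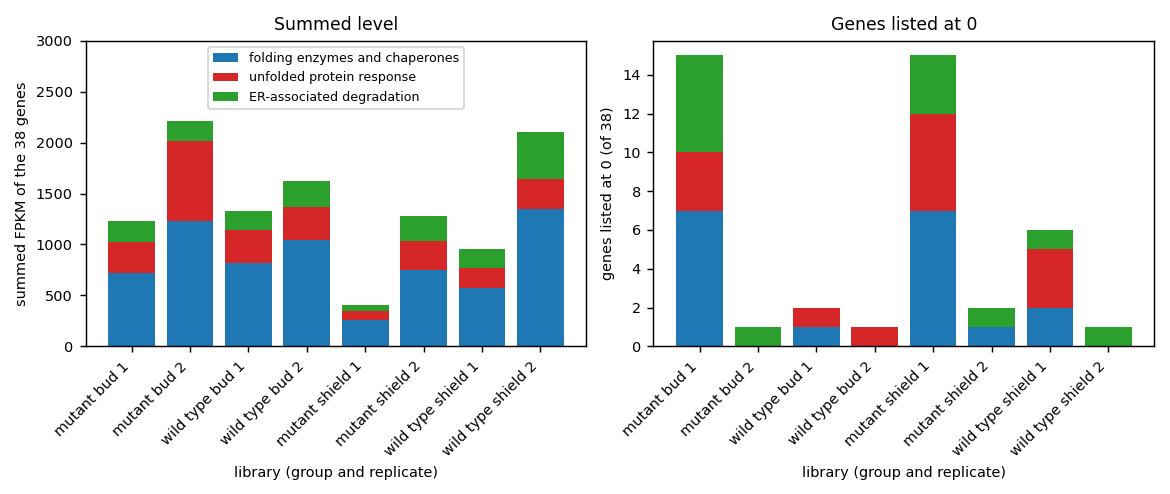
Left, summed FPKM of the 38 genes in each library, stacked by role (bars start at 0). Right, number of the 38 genes listed at 0. Each bar is 1 library. Mutant shield replicate 1 had the lowest sum, 406, and it and mutant bud replicate 1 had 15 genes listed at 0.

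Among the 22 folding enzymes and chaperones, hspa5 was the most abundant and stood above hsp90b1 and hyou1 in 8 of 8 libraries. hspa5 had 148 and 177 FPKM in mutant bud versus 151 and 192 in wild type bud, while mutant shield held 43.9 and 173 versus 111 and 339 in wild type shield. Mutant and wild type overlapped at both stages. The lowest value was that of mutant shield replicate 1 and the highest that of wild type shield replicate 2. hsp90b1, which folds receptors and integrins among other clients, had 25.02 and 53.5 FPKM in mutant bud versus 91.3 and 85.9 in wild type bud, while mutant shield held 17.1 and 35.8 versus 52.6 and 86.2 in wild type shield. Both mutant libraries lay below both wild type libraries at bud and at shield. hyou1, the large Hsp70 relative that exchanges nucleotide on BiP, had 102 and 25.2 FPKM in mutant bud versus 11.1 and 11.9 in wild type bud, while mutant shield held 2.29 and 13.96 versus 3.94 and 35.2 in wild type shield. Its 2 mutant bud libraries lay above the other bud libraries, with replicate 1 far above replicate 2.

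BiP works with J-domain cochaperones. dnajb11 (ERdj3), which brings it substrates, had 22.9 and 64.4 FPKM in mutant bud versus 116 and 144 in wild type bud, while mutant shield held 20.6 and 82.6 versus 37.8 and 142 in wild type shield. Both mutant bud libraries lay below the wild type ones, and the genotypes overlapped at shield. dnajb9a (ERdj4) had 0 and 0.512 FPKM in mutant bud versus 3.18 and 6.63 in wild type bud, while mutant shield held 0 and 5.63 versus 0 and 3.599 in wild type shield, lower in both mutant bud libraries and overlapping at shield. dnajb9a and the p58IPK genes dnajc3a and dnajc3b never exceeded 12.6 FPKM, and each was listed at 0 in both mutant replicates 1. dnajc3b had 0 and 4.88 FPKM in mutant bud versus 6.11 and 6.55 in wild type bud, while mutant shield held 0 and 3.301 versus 6.002 and 5.53 in wild type shield, lower in mutant at both stages. sdf2l1, which assists BiP and its J proteins, had 0 and 69.9 FPKM in mutant bud versus 3.45 and 9.96 in wild type bud, while mutant shield held 0 and 19.5 versus 30.1 and 30.7 in wild type shield, and both mutant shield libraries lay below both wild type shield libraries.

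The disulfide isomerases spanned a wide range of levels. pdia6 (P5) had 69.2 and 133 FPKM in mutant bud versus 110.2 and 131 in wild type bud, while mutant shield held 16.1 and 68.96 versus 47.98 and 132 in wild type shield, and mutant and wild type overlapped at both stages. pdia3 (ERp57), the partner of calnexin and calreticulin, had 0 and 90.9 FPKM in mutant bud versus 33.98 and 71.6 in wild type bud, while mutant shield held 23.4 and 74.1 versus 63.2 and 134 in wild type shield, with overlap at both stages. In mutant bud replicate 1 pdia3 was thus listed at 0 beside pdia4 at 115, the highest pdia4 value of the 8 libraries. pdia5 had 3.15 and 13.2 FPKM in mutant bud versus 11.04 and 12.96 in wild type bud, while mutant shield held 0.642 and 15.3 versus 24.2 and 28.1 in wild type shield. It was lower in both mutant shield libraries than in both wild type ones. p4hb, the classical isomerase, ranged from 3.22 to 62.7 over all libraries. ero1a, an oxidase that recharges the isomerases, reached at most 2.13 and was listed at 0 in 5 libraries. Its paralog ero1b, one of the wider pathway genes below, had 0 and 12.96 FPKM in mutant bud versus 14.3 and 35.6 in wild type bud. At shield ero1b had 0 and 14.2 in mutant versus 9.50 and 34.8 in wild type.

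Of the lectin chaperones, calr3a was the most abundant calreticulin gene, above calr in 8 of 8 libraries and above calr3b in 7. calr3a had 127 and 97.6 FPKM in mutant bud versus 53.3 and 64.9 in wild type bud, while mutant shield held 55.9 and 39.5 versus 46.7 and 77.4 in wild type shield, so that both mutant bud libraries lay above the other 6. calr ranged from 8.598 to 44.5. calr3b stood at 241 in mutant bud replicate 2 and was listed at 0 in replicate 1, while the other 6 libraries held 5.04 to 31.3. canx, the membrane-bound lectin, had 19.2 and 130.5 FPKM in mutant bud versus 38.5 and 84.8 in wild type bud, while mutant shield held 2.695 and 21.8 versus 3.66 and 44.3 in wild type shield. Its 2 replicates differed several-fold in every group but wild type bud. Whether the 3 calreticulin genes or other paralogs shared reads, and how such reads were assigned, is not given in the sources used here. The split within such families is therefore uncertain. uggt1 and uggt2, which mark glycoproteins that are still unfolded, were both listed at 0 in mutant shield replicate 1. uggt2 had 25.4 and 10.2 FPKM in mutant bud versus 7.29 and 10.1 in wild type bud, while mutant shield held 0 and 4.47 versus 4.48 and 11.7 in wild type shield, and uggt1 reached at most 11.1.

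manf, a secreted protein that binds BiP, and creld2, which has isomerase activity, are both known as targets of the stress response. manf had 13.03 and 13.1 FPKM in mutant bud versus 41.95 and 17.9 in wild type bud, while mutant shield held 30.04 and 17.96 versus 51.6 and 44.3 in wild type shield. creld2 had 0.549 and 14.5 FPKM in mutant bud versus 23.9 and 38.1 in wild type bud, while mutant shield held 13.9 and 29.3 versus 32.8 and 46.02 in wild type shield. For both genes the mutant libraries lay below the wild type libraries at the same stage.

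**Figure D2:**
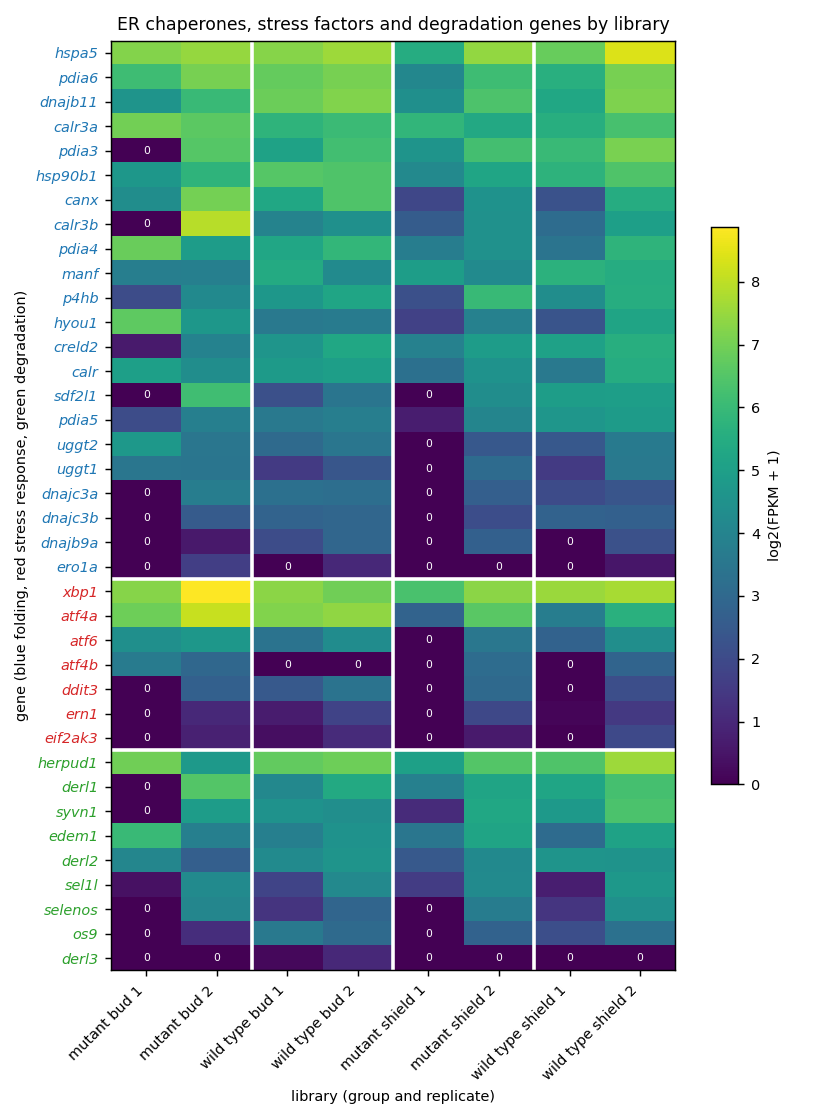
Level of each of the 38 genes, as log2(FPKM + 1), in each of the 8 libraries (columns, groups divided by white lines). Genes are grouped by role and ordered by mean FPKM, and a white 0 marks a value listed at 0. Genes listed at 0 gather in mutant bud replicate 1 and mutant shield replicate 1, with 15 each.

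In the unfolded protein response, the factors xbp1 and atf4a were abundant, the sensor atf6 was intermediate, and the factors atf4b and ddit3 and the sensors ern1 and eif2ak3 had the lowest means. xbp1, whose mRNA is spliced by IRE1 to make the active factor, had the highest mean of all 38 genes and led its group in 7 of 8 libraries. That mean, 193 FPKM against 167 for hspa5, includes the 469 of mutant bud replicate 2. By median hspa5 stood slightly above xbp1, at 161.9 against 160.7. xbp1 had 154 and 469 FPKM in mutant bud versus 160.2 and 122 in wild type bud, while mutant shield held 80.002 and 161 versus 185 and 209 in wild type shield. Both mutant shield libraries lay below both wild type shield libraries, and mutant bud replicate 2 stood above every other library. FPKM per gene does not separate the spliced from the unspliced form. atf4a, a factor made when PERK or related kinases slow translation, had 121 and 279 FPKM in mutant bud versus 145 and 169 in wild type bud, while mutant shield held 6.07 and 96.9 versus 12.6 and 48.97 in wild type shield. Every bud library lay above every shield library, and the genotypes overlapped.

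Its paralog atf4b was listed at 0 in both wild type bud libraries and in replicate 1 of both shield groups, with 12.05 and 6.75 in mutant bud and 7.796 and 6.21 in replicate 2 of mutant and wild type shield. ddit3, the CHOP gene, had 0 and 5.54 FPKM in mutant bud versus 4.57 and 9.502 in wild type bud, while mutant shield held 0 and 7.09 versus 0 and 3.34 in wild type shield. Genotypes overlapped for it at both stages. Of the sensors, atf6 had 20.6 and 25.05 FPKM in mutant bud versus 9.48 and 19.1 in wild type bud, while mutant shield held 0 and 10.5 versus 5.92 and 19.8 in wild type shield. Both mutant bud libraries lay above both wild type bud libraries. atf6 stood above ern1 and above eif2ak3 in 7 of 8 libraries, all 3 being listed at 0 in mutant shield replicate 1. ern1 had 0 and 1.03 FPKM in mutant bud versus 0.592 and 2.44 in wild type bud, while mutant shield held 0 and 2.83 versus 0.0810 and 1.77 in wild type shield, and the genotypes overlapped at both stages. eif2ak3 reached at most 2.90 and was listed at 0 in 3 libraries.

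In ER-associated degradation, herpud1, which organises the degradation complex and is known as a stress target, was the most abundant gene in 7 of 8 libraries. It had 124 and 26.7 FPKM in mutant bud versus 107 and 120.3 in wild type bud, while mutant shield held 32.03 and 89.1 versus 84.5 and 191 in wild type shield. The genotypes overlapped at both stages. The ligase gene syvn1 (HRD1) had 0 and 28.7 FPKM in mutant bud versus 21.8 and 19.7 in wild type bud, while mutant shield held 1.12 and 38.3 versus 27.2 and 80.5 in wild type shield. The genotypes overlapped here too. Its partner sel1l had 0.316 and 18.04 FPKM in mutant bud versus 2.501 and 17.1 in wild type bud, while mutant shield held 2.02 and 17.8 versus 0.682 and 25.3 in wild type shield, and replicate 1 was below replicate 2 in all 4 groups. edem1, which trims mannose from chains marked for disposal, had 63.99 and 13.4 FPKM in mutant bud versus 13.1 and 21.8 in wild type bud, while mutant shield held 10.3 and 35.1 versus 7.52 and 33.8 in wild type shield, with the highest value in mutant bud replicate 1.

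The derlins form part of the exit channel. derl1 had 0 and 89.1 FPKM in mutant bud versus 16.5 and 41.5 in wild type bud, while mutant shield held 13.5 and 35.3 versus 35.8 and 76.1 in wild type shield. Its genotypes overlapped at bud and were narrowly separated at shield. derl2 had 15.96 and 5.49 FPKM in mutant bud versus 17.8 and 23.4 in wild type bud, while mutant shield held 4.63 and 17.4 versus 22.9 and 22.7 in wild type shield, and its mutant libraries lay below the wild type libraries at both stages. derl3 was listed at 0 in 6 libraries and stood at 0.133 and 1.02 in wild type bud. os9, a lectin that delivers glycoproteins to the ligase, had 0 and 1.23 FPKM in mutant bud versus 11.1 and 7.48 in wild type bud, while mutant shield held 0 and 5.94 versus 3.34 and 8.896 in wild type shield. It was lower in both mutant bud libraries and overlapped at shield. selenos, the selenoprotein that recruits the p97 ATPase, ranged from 0 to 21.1, with replicate 1 below replicate 2 in every group.

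**Figure D3:**
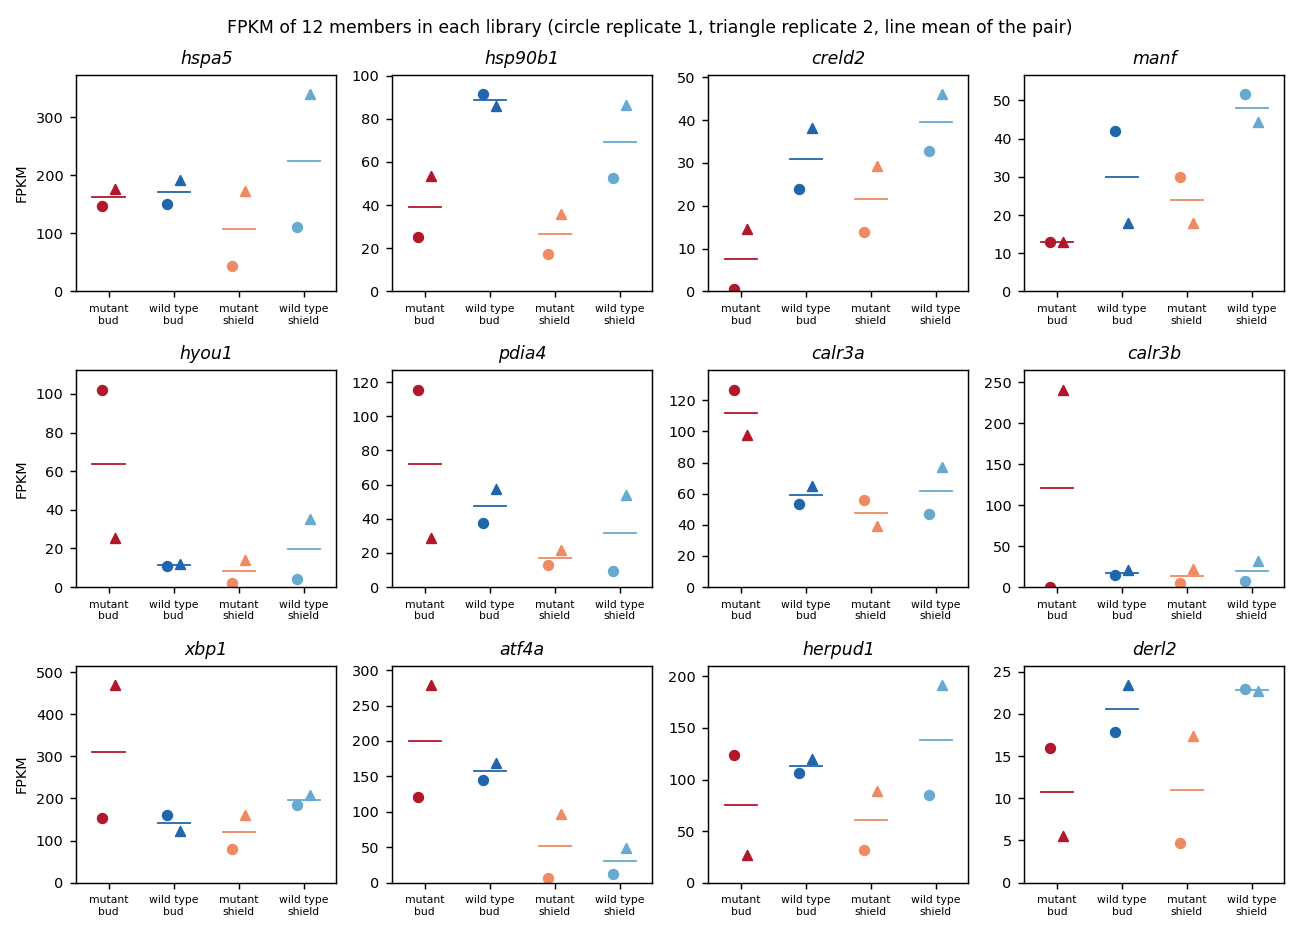
FPKM of 12 of the genes in every library (linear axes from 0). Circles are replicates 1, triangles replicates 2, and the line is the mean of the pair. hsp90b1, creld2, manf and derl2 show mutant libraries below wild type at both stages, atf4a shows bud above shield, and xbp1 and calr3b show 1 high library, mutant bud replicate 2, at 469 and 241.

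At shield, 30 of the 37 tested genes were lower in mutant than in wild type PGCs, or 81.1%, against 63.5% of all genes tested. By role these were 21 of 22 folding genes, 3 of 7 genes of the unfolded protein response and 6 of 8 degradation genes. The median log2 difference, mutant minus wild type on the log2(FPKM + 1) scale, was −0.91 for the 37 genes and −0.30 for all genes, so that the ER genes lay at −0.61 relative to all. The ER genes were more abundant than the tested genes as a whole. Their median log2(FPKM + 1) was 1.89 against 0 in mutant shield replicate 1, and 5.12 against 3.25 in wild type shield replicate 2. Taken within each library, the ER median minus that of all genes overlapped between genotypes. It was 1.89 and 1.14 in mutant shield versus 1.50 and 1.87 in wild type shield. Of the tested ER genes 37.8% were listed at 0 in mutant shield replicate 1, against 53.3% of all. No comparison with genes of like level was made, here or below. Folding genes lay at −0.62 relative to all, degradation genes at −0.93 and stress response genes at 0.31. No single gene passed the test. limma, with Benjamini-Hochberg adjustment, called 0 of the 37 and 0 of 13984 genes (0%), and 0 and 201 had an unadjusted p under 0.05.

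The genes with the smallest p on the lower side at shield were pdia5 (−2.39, SE 1.49), sdf2l1 (−2.79, SE 1.94) and hsp90b1 (−1.40, SE 0.98), each with a limma adjusted p of 1. On the higher side stood ddit3 (0.45, SE 1.59), dnajb9a (0.26, SE 1.31) and edem1 (0.23, SE 1.29), all within 1 SE of 0. For hspa5 the difference was −1.14, SE 0.89, for pdia6 −1.22, SE 0.99 and for herpud1 −1.23, SE 0.99. Where a library is listed at 0, as for sdf2l1, the size of the difference depends on the value of 1 added before taking logs. Both mutant libraries lay below both wild type libraries for 10 of the 37 genes, or 27.0%, against 12.2% of all genes. These were hsp90b1, pdia5, dnajc3b, sdf2l1, manf, creld2, uggt2, xbp1, derl1 and derl2. No gene of the 37 was separated as higher, against 4.26% of all genes.

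The count of lower genes at shield rested on 1 library of each genotype. It was 21 of 37 without mutant shield replicate 1, where 30.5% of all genes were lower, and 19 of 37 without wild type shield replicate 2, where 38.2% of all genes were lower. It was 37 of 37 without mutant shield replicate 2, where 81.2% of all genes were lower, and without wild type shield replicate 1, where 79.1% were. Relative to all genes the median stayed below 0 in each of these 4 cases, between −0.86 and −0.44, and that of the folding genes between −0.91 and −0.46. The same holds for the changes of scaling, which moved the median of all genes to −0.15 (median of ratios), −0.18 (total outside the mitochondrial genome) and 0.05 (quantile), with the ER genes at −0.51, −0.50 and −0.59 relative to it. Of the folding genes 20, 21 and 20 of 22 were then lower, where 56.8%, 57.8% and 47.2% of all genes were. The number separated as lower became 15, 11 and 15 of 37 (40.5%, 29.7% and 40.5%, against 13.5%, 12.8% and 12.3% of all genes).

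At bud the picture was mixed, with genes on both sides of every role group. Of the 37 genes 25 were lower in mutant than in wild type PGCs, or 67.6%, close to the 66.5% of all genes. The median log2 difference was −0.32, against −0.51 for all genes. Relative to all genes, folding genes lay at 0.23, stress response genes at 0.74 with 4 of 7 higher, and degradation genes at −0.48 with 7 of 8 lower. limma called 0 of the 37 genes and 0 of 13984 (0%), and 1 and 677 had an unadjusted p under 0.05. That 1 gene was atf4b, for which no fold is given since wild type bud is listed at 0.

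Separated as higher in mutant bud were 6 of the 37 genes, or 16.2%, against 8.19% of all genes. They were hyou1 (2.06, SE 1.42), uggt1 (1.52, SE 1.65), calr3a (0.91, SE 0.90), uggt2 (0.84, SE 1.54), atf6 (0.71, SE 1.51) and atf4b. uggt1 stood at 10.3 and 9.88 FPKM in mutant bud against 1.88 and 4.21 in wild type bud. Lower in both were 9 genes, or 24.3%, against 28.9% of all genes. They were creld2 (−2.67, SE 1.32), os9 (−2.76, SE 1.56), dnajb9a, p4hb, dnajb11, dnajc3b, hsp90b1, derl2 and manf. creld2 and os9 had the smallest p on the lower side, with a limma adjusted p of 0.959. The third by p on the higher side was xbp1 (0.94, SE 0.81), whose libraries overlapped.

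The 2 mutant bud libraries differed from each other in both directions. In replicate 1, hyou1, pdia4, edem1 and uggt2 stood at 102, 115, 63.99 and 25.4 FPKM, against 25.2, 28.9, 13.4 and 10.2 in replicate 2. In replicate 1 pdia3, calr3b, sdf2l1, syvn1 and derl1 were listed at 0, and in replicate 2 those 5 stood at 90.9, 241, 69.9, 28.7 and 89.1. Replicate 2 held the highest value of the 8 libraries for 10 of the 38 genes, among them xbp1, canx, calr3b and atf4a, against 11 for wild type shield replicate 2 and 6 for mutant bud replicate 1. Mutant bud replicate 2 was also the library with the most hatching gland, enveloping layer, neural ectoderm and notochord transcripts. It had the lowest sum of germ cell markers, a sum led by nanos3, though most of these markers were lower in mutant shield replicate 1. For the notochord list the margin was narrow, at 536 against 514 in wild type shield replicate 2. Without replicate 2, xbp1 in mutant bud was the single value 154, within the wild type bud range, and calr3b was listed at 0.

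At bud the direction of the median depended on the library. Relative to all genes it was 0.34 without mutant bud replicate 1, with 15 of 37 genes lower, where 56.5% of all genes were lower. Without mutant bud replicate 2 it was −0.32, with 26 of 37 lower, where 69.2% of all genes were. For the folding genes alone it was 0.34 and −0.68, and for the stress response genes 1.03 and 0.54. Scaling to the median of ratios, to the total outside the mitochondrial genome or by quantiles gave 22, 25 and 19 of 37 lower, with the median of all genes at −0.34, −0.56 and 0.04. Of all genes 61.9%, 69.0% and 48.5% were then lower.

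Over both stages together 29 of the 37 genes were lower in mutant PGCs, or 78.4%, against 71.0% of all genes, and the median lay at −0.15 relative to all genes. limma called 0 of 37 and 0 of 13984 (0%), with 0 and 597 at an unadjusted p under 0.05. The 3 smallest p on the lower side belonged to creld2 (−1.79, SE 0.94), hsp90b1 (−1.33, SE 0.70) and os9 (−2.04, SE 1.11), each at a limma adjusted p of 0.983. On the higher side stood atf4b, hyou1 (0.56, SE 1.00) and edem1 (0.50, SE 0.92). Without both mutant replicates 1, which had the most genes listed at 0, 16 of 37 were lower, where 41.8% of all genes were.

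Separated in the same direction at both stages were 5 genes, all lower in mutant: hsp90b1, dnajc3b, manf, creld2 and derl2. They make up 13.5% of the 37, against 4.46% of all genes. None of the 37 was higher at both stages, against 0.422% of all genes. hsp90b1, dnajc3b, creld2 and derl2 were separated under each of the 3 other scalings as well. manf was not, and os9 (under 2 scalings) or pdia5 (under 1) took its place. The margin was small for derl2 at bud, with 15.96 in mutant replicate 1 against 17.8 in wild type replicate 1.

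**Figure D4:**
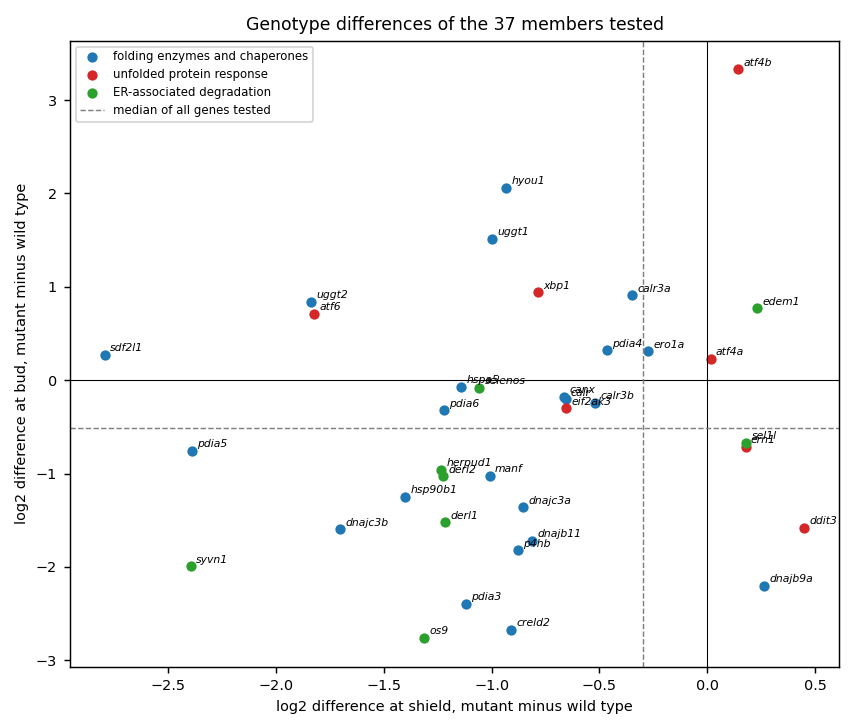
Log2 difference, mutant minus wild type on the log2(FPKM + 1) scale, at shield (horizontal) and at bud (vertical) for the 37 genes tested, coloured by role. Solid lines mark 0, and dashed lines the median of all genes tested, −0.30 at shield and −0.51 at bud. At shield 30 points lie left of 0, and at bud 25 lie below it. No gene passed the test, and atf4b was listed at 0 in both wild type bud libraries.

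A difference between the stages in the genotype effect was tested as the interaction. limma called 0 of 37 genes and 0 of 13984 (0%), and 0 and 199 had an unadjusted p under 0.05. The smallest p belonged to xbp1 (1.73, SE 1.15), atf4b and hyou1 (2.99, SE 2.01) on the positive side, and dnajb9a (−2.46, SE 1.86), creld2 (−1.76, SE 1.87) and ddit3 (−2.03, SE 2.25) on the negative side. Each had a limma adjusted p of 0.9999.

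Between stages, atf4a was the gene of the 37 with the smallest p in both genotypes. In mutant PGCs its log2 difference, bud minus shield, was 2.81, SE 1.19, and in wild type PGCs 2.60, SE 1.19. The limma adjusted p was 0.731 in mutant and 1 in wild type. It was also the 1 gene of 37 separated as higher at bud in both genotypes (2.70%, against 7.45% of all genes), and manf the 1 separated as lower in both (2.70%, against 2.57%). Both stayed so under the 3 other scalings, where creld2 joined manf. limma called 0 of 37 genes in mutant and 0 in wild type, and 0 of 13984 (0%) in each. The counts at an unadjusted p under 0.05 were 1 of 37 and 928 of all genes in mutant, and 1 and 467 in wild type.

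In mutant PGCs 25 of 37 genes were higher at bud than at shield, or 67.6%, against 56.4% of all genes, with the median at 0.29 relative to all genes. Separated as higher were 8 genes, or 21.6%, against 14.7% of all genes: hyou1 (2.89, SE 1.42), uggt2 (2.88, SE 1.54), atf6 (2.81, SE 1.51), atf4a, uggt1, pdia4, pdia6 and calr3a. manf was the 1 gene separated as lower (2.70%, against 8.77%). On the lower side creld2 (−2.12, SE 1.32) and pdia3 (−2.16, SE 1.59) had the smallest p. Without mutant shield replicate 1, 14 of 37 were higher and 23 lower at bud, where 61.0% of all genes were lower. Without mutant bud replicate 2, 17 were higher and 19 lower, where 53.2% of all genes were lower.

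In wild type PGCs 20 of 37 genes were higher at bud, or 54.1%, against 68.5% of all genes, with a median of −0.45 relative to all genes and 28 of 37 below the median of all genes. Separated as higher were dnajc3a, dnajc3b, atf4a and ddit3, or 10.8%, against 29.1% of all genes. Separated as lower were pdia5, sdf2l1, manf, xbp1 and syvn1, or 13.5%, against 9.89%. After canx (2.001, SE 1.43), the other gene high on the upper side was ddit3 (1.88, SE 1.59), and on the lower side sdf2l1 (−2.17, SE 1.94), with 3.45 and 9.96 FPKM at bud against 30.1 and 30.7 at shield. The split of the 37 depended on scaling. Higher at bud were 11 of 37 after median-of-ratios scaling, 15 after scaling to the total outside the mitochondrial genome and 10 after quantile normalization, where the median of all genes was 0.19, 0.32 and 0.01, against 0.51 without scaling. The number separated as lower was then 13, 10 and 17 of 37 (35.1%, 27.0% and 45.9%, against 16.4%, 13.7% and 21.6% of all genes). Without wild type shield replicate 1, 8 of 37 were higher and 29 lower at bud, where 52.4% of all genes were lower. Without wild type bud replicate 2, 12 were higher and 25 lower, where 38.5% of all genes were lower.

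**Figure D5:**
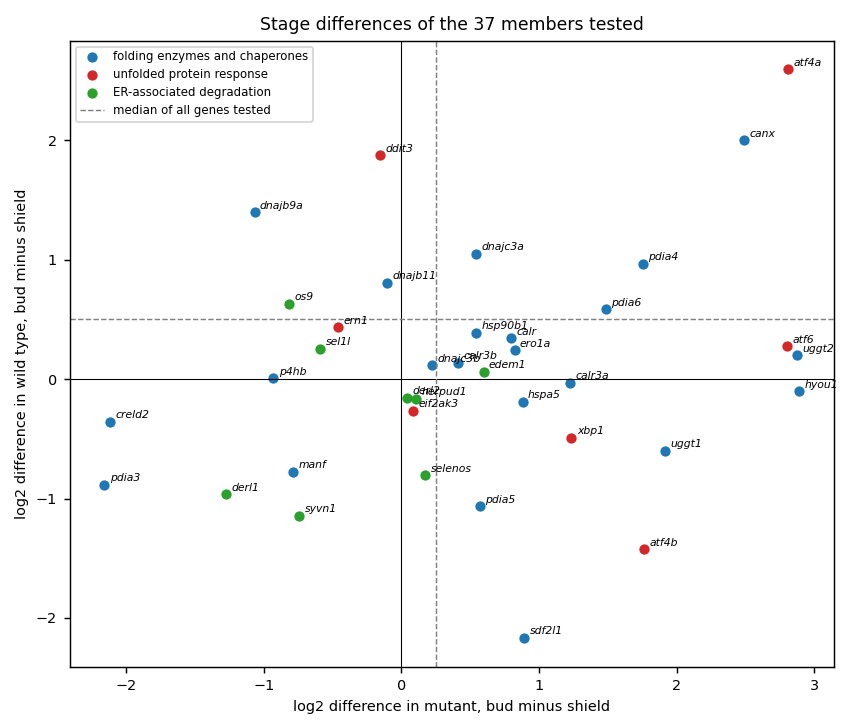
Log2 difference, bud minus shield on the log2(FPKM + 1) scale, in mutant (horizontal) and in wild type PGCs (vertical) for the 37 genes tested, coloured by role. Solid lines mark 0, and dashed lines the median of all genes tested, 0.25 in mutant and 0.51 in wild type. atf4a lies highest in wild type, at 2.60, and stands at 2.81 in mutant. No gene passed the test.

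A wider set of 109 pathway genes, of which 98 were in the table and 89 were tested, gave the following counts. Lower in mutant shield PGCs were 28 of 36 further folding genes, 16 of 21 of the stress response and 27 of 32 of degradation, at −0.66, −0.28 and −0.50 relative to all genes. These were 77.8%, 76.2% and 84.4%, against 63.5% of all genes. At bud 21 of 36, 12 of 21 and 27 of 32 were lower, at 0.40, 0.04 and −0.74. These were 58.3%, 57.1% and 84.4%, against 66.5% of all genes. limma called 0 of the 89 in any of the 6 comparisons. At an unadjusted p under 0.05 were 2 of the 89 at shield and 5 at bud, against 201 and 677 of all 13984. fkbp14, a prolyl isomerase of the ER, had 0 and 8.31 FPKM in mutant bud versus 63.5 and 50.4 in wild type bud, while mutant shield held 32.7 and 56.3 versus 96.6 and 75.2 in wild type shield, and its difference at bud was −4.24, SE 1.22 (limma adjusted p = 0.959). ufd1l, a cofactor of the p97 ATPase, had 0 and 23.1 FPKM in mutant bud versus 78.6 and 73.5 in wild type bud, while mutant shield held 10.95 and 41.2 versus 51.8 and 47.4 in wild type shield. selenok, a partner of selenos at p97, had 34.99 and 19.4 FPKM in mutant shield, against 80.95 and 110.2 in wild type shield. chac1, a glutathione-degrading enzyme known as a target of ATF4, had 152 and 106 FPKM in mutant bud versus 91.6 and 108 in wild type bud, while mutant shield held 50.8 and 61.9 versus 157 and 208 in wild type shield. For fkbp14 and ufd1l at bud and at shield, and for selenok and chac1 at shield, both mutant libraries lay below both wild type libraries. Such separation at bud held for 11 of 36 further folding, 6 of 21 stress response and 8 of 32 degradation genes, against 28.9% of all genes. At shield it held for 7 of 36, 3 of 21 and 7 of 32, against 12.2% of all genes. Separated as higher at bud were 5 of 36, 4 of 21 and 2 of 32, against 8.19% of all genes. At shield they were 1, 1 and 0, against 4.26%. The smallest p on the higher side at bud belonged to traf2b, ppp1r15b and txndc12. In mutant bud they stood at 63.3 and 7.21, 31.3 and 3.35, and 141 and 63.5 FPKM. In wild type bud they stood at 0 and 4.54, 0.115 and 2.45, and 24.7 and 42.8. tmx2a, a thioredoxin-related membrane protein gene, was higher in mutant at shield and had the smallest p of the 89 there. It stood at 4.52 and 1.12 FPKM in mutant shield and was listed at 0 in both wild type shield libraries, so that no fold is given. cnpy4 was listed at 0 in both mutant shield libraries, against 9.86 and 25.4 FPKM in wild type shield. eif2ak2, the PKR kinase gene, was listed at 0 in both mutant bud libraries, against 1.78 and 5.26 FPKM in wild type bud.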

How the data were processed

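The deposited table holds 1 column of FPKM per library, with 31934 entries for 31202 symbols and no coordinates. Trim Galore, STAR 2.5.3a, Cufflinks 2.2.1 and danRer11 are named in the submitters' processing notes. The annotation is not given in the sources used here. Of the 545 symbols with several entries, none a member, the entry with the highest mean was kept, and 2 entries with missing values were left out. Depth is unknown: low values that would be multiples of 1 read gave ratios between libraries that added up (within 0.1 on log2) in 17 of 56 triples, so no counting interval is given.

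Genes that reached an FPKM of 1 in 2 or more libraries were fitted with limma 3.58.1 (R 4.3.3, limma-trend on log2(FPKM + 1), 4 group means, 4 residual degrees of freedom, 15.4 after moderation). Calls are at a Benjamini-Hochberg adjusted p under 0.05 over all 13984 genes, two-sided. Separated means that the libraries of both groups do not overlap. The labels call the libraries biological replicates. Figures used matplotlib 3.10.9.

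The members, role groups and wider lists were chosen with earlier results of these data known. Genes given in all 8 libraries were the 6 most abundant of each role group, the 3 with the smallest p each way in a comparison, and some named after their values were seen (manf, dnajc3b and the wider genes beyond the 3). Promoter and protein sequences were not used here. The 20 alternatives changed the pseudocount, filter, scaling, entries, block, prior trend and libraries. The scaling outside the mitochondrial genome and the joint omission of both mutant replicates 1 were chosen after seeing the data.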

Additional observations from a re-analysis of the deposited data

Results flagged for a closer look

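uggt2, which codes for a glycoprotein folding sensor, had opposite genotype differences at the 2 stages. It stood at 25.4 and 10.2 FPKM in mutant bud, against 7.29 and 10.1 in wild type bud, and at 0 and 4.47 FPKM in mutant shield, against 4.48 and 11.7 in wild type shield. Both mutant libraries were higher at bud (log2 difference 0.84) and both were lower at shield (−1.84). The margins were narrow in both cases, and at bud the libraries overlapped after scaling to the total outside the mitochondrial genome. The interaction was 2.68, SE 2.18 (limma adjusted p = 0.9999). Groups of 2 libraries are too small to look for single outlying samples.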

How the results depend on the processing

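No member was called in any of the 6 comparisons under any of the 20 alternatives, where the smallest adjusted p was 0.0549. Counts of called genes over all genes stayed at 0 except in 3 comparisons. For bud against shield in mutant PGCs there were 3 calls with a filter at FPKM of 5 (BX649394.5, ccna1 and cldng), 8 with median-of-ratios scaling, 7 with quantile normalization, 9 with scaling outside the mitochondrial genome, and 0 to 146 when 1 library was left out, the 146 without mutant shield replicate 2. For genotype over both stages there was 1 call (BX571711.1) with that filter and with the scaling outside the mitochondrial genome. With a replicate block there were 5 calls for the stage in mutant (those 3 with NC_002333.4 and inka1a), 1 over both stages (BX571711.1) and 1 interaction (mt-atp8). These genes were named after their values were seen. The labels do not say whether replicate numbers pair samples across groups. Differences between replicates 1 and 2 correlated across genes at −0.01 to 0.33 between groups, not over 0.1 in every pair of groups, so the numbers were not taken as pairs. Such a correlation leaves out a shift common to all genes, so it cannot decide whether replicate numbers mark batches.

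Medians of the ER genes relative to all genes moved by less than the spread between replicates (SD 0.78) in every alternative. The spread is that of another measure, the median of the ER genes minus that of all genes within each library. That spread came mostly from mutant bud, at 3.31 and 1.27, against 1.02 and 1.05 in wild type bud. In mutant bud replicate 1 the median was 3.49 for the ER genes and 0.18 for all genes. Mutant shield held 1.89 and 1.14, and wild type shield 1.50 and 1.87, so that the genotypes overlapped at shield. The bar is therefore wide, and changes of sign passed it too. In every comparison the main median, such as −0.61 at shield, was itself smaller in size than 0.78. The 0.78 is not the error of such a median, which is taken over differences of single genes between groups. The medians of the ER genes stayed below 0 in 20 of 20 alternatives at shield (−0.86 to −0.43), over both stages (−0.46 to −0.02) and for the stage in wild type (−0.60 to −0.16). For the interaction they stayed above 0 in 20 of 20 (0.27 to 1.04). They changed sign in 7 of 20 at bud and in 2 of 20 for the stage in mutant. Not all of the 20 could move a given median, so these counts are not of 20 separate checks. Leaving out a bud library, adding the replicate block or dropping the prior trend left the shield median at −0.61. Leaving out a mutant library left that of the stage in wild type at −0.45.

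Leaving out 1 library turned the direction of these uncalled differences. At shield the ranges were −1.10 to 1.63 for dnajb9a, −1.06 to 1.96 for ddit3 and −0.78 to 1.25 for edem1. Over both stages they were −0.042 to 1.04 for edem1 and −0.15 to 1.28 for hyou1. For the stage in mutant they were −5.42 to 1.103 for pdia3 and −2.43 to 0.30 for dnajb9a, and pdia3 stood at 0.29 without both mutant replicates 1. The cause was not tested. With 2 libraries a group and unknown depth, values near 0 FPKM cannot tell a silent gene from a missed one.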

Other observations

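Some further genes of the same route were chosen after their values were seen. serpinh1b, the collagen chaperone Hsp47, had 0 and 162 FPKM in mutant bud versus 8.17 and 16.9 in wild type bud, while mutant shield held 0 and 5.22 versus 1.98 and 27.8 in wild type shield. Mutant bud replicate 2 thus stood apart, the library that also had the most hatching gland, enveloping layer, neural ectoderm and notochord transcripts. ppib, an ER cyclophilin, had 263 and 525 FPKM in mutant bud versus 491 and 449.9 in wild type bud, while mutant shield held 147 and 179 versus 368 and 352 in wild type shield. Both mutant shield libraries lay below both wild type shield libraries, as for 12.2% of all genes, and the genotypes overlapped at bud. vcp, the p97 ATPase that pulls chains out of the membrane, had 101 and 189 FPKM in mutant bud versus 105 and 128 in wild type bud, while mutant shield held 6.19 and 54.4 versus 49.7 and 106 in wild type shield. Its log2 difference between bud and shield was 2.80, SE 1.05 in mutant PGCs (limma adjusted p = 0.696). Both mutant bud libraries lay above both mutant shield libraries, as for 14.7% of all genes.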
